A study of Mus musculus with 6 samples.

Results

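The genes described here are Mpo, Elane, Ctsg and Prtn3, 4 of the 32285 genes in the count matrices, found by their symbols. Their identifiers in the files are ENSMUSG00000009350 for Mpo, ENSMUSG00000020125 for Elane, ENSMUSG00000040314 for Ctsg and ENSMUSG00000057729 for Prtn3. They are commonly grouped as proteases of the primary granule, but only Elane, Ctsg and Prtn3 encode serine proteases (neutrophil elastase, cathepsin G and proteinase 3). Mpo encodes myeloperoxidase, a heme enzyme that makes hypochlorous acid, so the genes are called primary granule genes below.

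Primary (azurophil) granules are packed early in granulocyte development, at the myeloblast and promyelocyte stages, and their contents are released onto ingested microbes or out of the cell once the neutrophil is mature. Transcription of the 4 genes is known from myeloid progenitors and is shut off before the neutrophil leaves the marrow. Their RNA is commonly read as a mark of entry into the granulocyte and monocyte lineages. In these data Prtn3 RNA was also found in most cells of the stem cell class, as given below. The protease precursors are activated by dipeptidyl peptidase 1 (Ctsc), stored on the proteoglycan serglycin (Srgn) and held in check in the cytosol by serpins.

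The samples were hematopoietic stem and progenitor cells (HSPCs) sorted from mouse bone marrow as CD45.1+ Lin- cKit+ Sca1+ (LSK) cells and profiled by droplet single-cell RNA sequencing with molecular identifiers (UMIs). All recipients were female, non-conditioned C57BL/6J (CD45.1) mice of 8 to 12 weeks, sacrificed on day 21. The AML group had received 1000000 C1498 cells, a mouse myeloid leukemia line carrying CD45.2, and the control group PBS. There were 3 PBS and 3 AML libraries, and the labels do not say whether a library is 1 mouse. The authors' cell table holds 16822 cells of 5 libraries: 6838, 934 and 4398 cells in PBS 1, 2 and 3, and 693 and 3959 in AML 1 and 3. It holds 0 cells of AML 2, so comparisons were made between 3 and 2 libraries. The table gives each cell a class by its highest module score (HSC, MPP-2, MPP-3 or MPP-4), a cluster number and a cell cycle phase. Whether the class signatures held any of the 4 genes is unknown from the sources used here.

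Because the 4 genes are transcribed together in developing granulocytes, the 250 bases upstream of each annotated start are shown first (RefSeq, build GRCm38.p6, 5′ to 3′ on the gene's strand). They lie at chr11:87793534-87793783 (plus strand) for Mpo, chr10:79886062-79886311 (plus) for Elane, chr14:56102575-56102824 (minus) for Ctsg and chr10:79879417-79879666 (plus) for Prtn3. Capitals mark each GAGGAA, a purine-rich core of the kind bound by PU.1 (Spi1).
Mpo: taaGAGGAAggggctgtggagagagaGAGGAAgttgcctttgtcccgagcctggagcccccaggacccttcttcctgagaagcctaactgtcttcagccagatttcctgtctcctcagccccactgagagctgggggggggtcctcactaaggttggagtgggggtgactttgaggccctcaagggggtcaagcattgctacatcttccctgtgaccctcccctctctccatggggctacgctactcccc
Elane: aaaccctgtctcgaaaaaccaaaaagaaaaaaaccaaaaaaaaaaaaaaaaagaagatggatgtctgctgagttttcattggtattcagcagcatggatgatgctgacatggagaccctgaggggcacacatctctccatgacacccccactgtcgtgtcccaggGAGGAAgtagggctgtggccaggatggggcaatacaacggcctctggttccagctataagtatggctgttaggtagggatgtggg
Ctsg: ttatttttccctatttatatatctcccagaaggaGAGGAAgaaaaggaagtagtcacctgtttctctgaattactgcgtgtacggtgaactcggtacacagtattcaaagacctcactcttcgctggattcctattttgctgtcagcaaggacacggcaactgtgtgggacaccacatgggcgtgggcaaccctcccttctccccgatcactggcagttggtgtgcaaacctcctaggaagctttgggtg
Prtn3: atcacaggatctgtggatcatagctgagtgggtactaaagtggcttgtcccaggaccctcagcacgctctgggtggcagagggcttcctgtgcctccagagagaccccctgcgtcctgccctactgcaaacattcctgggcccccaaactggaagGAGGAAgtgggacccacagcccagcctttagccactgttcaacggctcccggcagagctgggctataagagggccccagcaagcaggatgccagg
GAGGAA occurred in all 4 of these windows and, searched on both strands, in 23.1% of 27025 annotated promoters of the same length. It began 247 and 224 bases before the start of Mpo, 85 before Elane, 216 before Ctsg and 95 before Prtn3. AACNG, a MYB-type core, was present in 4 of 4 against 74.1% of promoters. TGTGGT, a RUNX-type core, was present upstream of Ctsg only (14.2% of promoters), and TTNCNNAA, a C/EBP-type pattern, in 0 of 4 (36.9%). These matches are a description of letters within 250 bases and no binding was measured. Prtn3 and Elane are neighbors on chromosome 10, with 3137 bases and 0 annotated genes between them, and both are read from the plus strand.

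The cells of the table held 1945659 UMIs in AML 1 and 10403685 to 32123508 in the other 4 libraries. The median cell had 2393 UMIs in AML 1 and 4015 to 9586 elsewhere. AML 1 also stood apart in cell cycle, with 15.1% of its cells outside cluster 4 called G1 against 52.1% to 58.5% in the other libraries. Library pairs shared at most 12 barcodes among cells of the table (0.535% of the smaller library at most), while over all deposited barcodes AML 2 shared 624 to 2472 with each other library. The 7 markers fixed for LSK cells, Kit and Ly6a among them, were all detected in all libraries, at a summed 829 to 1042 CPM (UMIs of a gene divided by all UMIs of the sum, on a per-1000000 basis). Late granule genes of maturing neutrophils (Ltf, Camp, Ngp and 8 others) summed to 2.31 to 18.3 CPM.

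Across the authors' classes, all 4 genes were highest in MPP-3, and the 5 libraries of MPP-3 did not overlap those of the next class for any of them. Levels are CPM of each library's summed cells. The classes and clusters were made from the same cells' expression, so the order is a description without a test. Mpo was at 491 ± 212 CPM (SD, n = 5 libraries) in MPP-3, 117 ± 61.8 in MPP-2, 69.5 ± 33.0 in MPP-4 and 22.4 ± 7.21 in HSC. Elane was at 521 ± 265 CPM in MPP-3, 23.0 ± 30.3 in MPP-2, 6.90 ± 9.07 in MPP-4 and 2.43 ± 2.19 in HSC. These means and SDs take PBS and AML libraries together. By group, Elane averaged 577 CPM in PBS and 437 in AML in MPP-3, and 5.37 and 49.5 in MPP-2. Ctsg was at 344 ± 102 CPM in MPP-3, 76.3 ± 37.7 in MPP-2, 25.6 ± 16.5 in MPP-4 and 4.62 ± 4.83 in HSC. The order of classes was therefore the same for these 3 genes, although MPP-2 and MPP-4 overlapped between libraries in each, and MPP-4 and HSC overlapped for Elane and Ctsg but not for Mpo. Prtn3 differed in its floor, with 1942 ± 423 CPM in MPP-3 but 846 ± 187 in MPP-2, 668 ± 128 in HSC and 652 ± 125 in MPP-4, and those 3 classes overlapped. In HSC the lowest library still held 489 CPM of Prtn3, where Elane and Ctsg were at 0 in their lowest library. That library was AML 1 for Prtn3 and Elane, and PBS 2 and AML 1 both held 0 of Ctsg. The HSC sum of AML 1 had only 23 cells and 61292 UMIs, so a 0 there says little.

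Among the 9 clusters, cluster 4 held the highest level of every one of the 4 genes, with no overlap between its libraries and those of the next cluster. Cluster 4 had 826 of the 16822 cells, between 23 cells in PBS 2 and 379 in AML 3. Mpo was at 856 ± 403 CPM there (n = 5) and at 174 ± 128 in cluster 1, the next highest. Ctsg was at 582 ± 131 CPM in cluster 4 and 115 ± 87.1 in cluster 1. Prtn3 was at 3239 ± 469 CPM in cluster 4 and 1197 ± 269 in cluster 1. Elane was at 1109.8 ± 483 CPM in cluster 4 and, next, at 81.2 ± 134 in cluster 7 (n = 3) and 38.7 ± 62.5 in cluster 1. By group, Elane averaged 1222 CPM in PBS and 942 in AML in cluster 4, and 4.23 and 90.3 in cluster 1. The cluster 7 value of Elane came mostly from 1 cell of PBS 3, which held 83 of that library's 84 Elane UMIs in clusters 6, 7 and 8. The remaining clusters overlapped their neighbors in the order, apart from Prtn3, which was at 494 ± 74.7 CPM in cluster 2 and, without overlap, at 181 ± 98.3 in cluster 7.

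**Figure D1:**
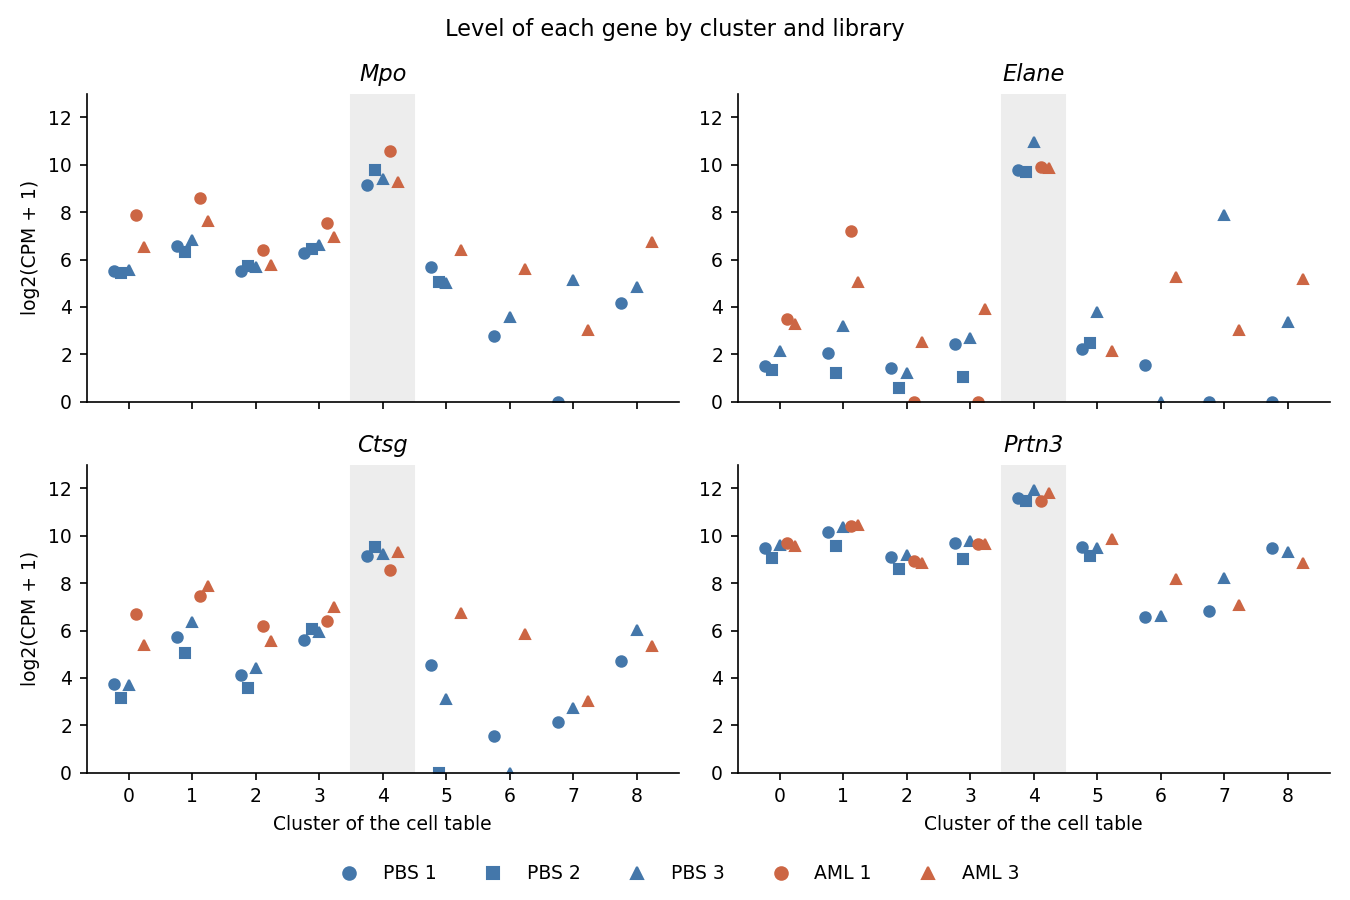
Level of Mpo, Elane, Ctsg and Prtn3 in each cluster of the cell table, as log2(CPM + 1), with 1 symbol per library with at least 20 cells (PBS blue, AML orange) and cluster 4 shaded. Cluster 4 lies above the other clusters for all 4 genes, from means of 582 CPM for Ctsg to 3239 CPM for Prtn3, and 1 high point of Elane in cluster 7 is PBS 3.

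Elane was the gene most restricted to cluster 4. Of all its UMIs in the table, 91.7% lay in cluster 4, compared with 48.9% for Ctsg, 40.9% for Mpo and 27.0% for Prtn3. In AML 1 the order of Ctsg and Mpo was turned, with 31.0% of its Ctsg and 45.3% of its Mpo UMIs in cluster 4. Within each library, the level of Elane in cluster 4 was 358, 690.3 and 235 times that in the other cells of PBS 1, 2 and 3, and 20.5 and 57.3 times in AML 1 and 3. In PBS 3, 83 of the 180 Elane UMIs outside cluster 4 lay in the single cell of cluster 7, without which the ratio was 435. The same ratio for Ctsg was 21.1, 30.1 and 15.8 in PBS and 3.42 and 5.67 in AML, and for Mpo 9.61, 14.9 and 9.61 in PBS and 6.30 and 5.39 in AML. For these 3 genes both AML libraries lay below all PBS libraries, as did 10.5% of the 11196 genes with such a ratio. Prtn3 had ratios of 4.01, 5.37 and 4.48 in PBS and 3.13 and 4.16 in AML, and the groups overlapped.

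**Figure D2:**
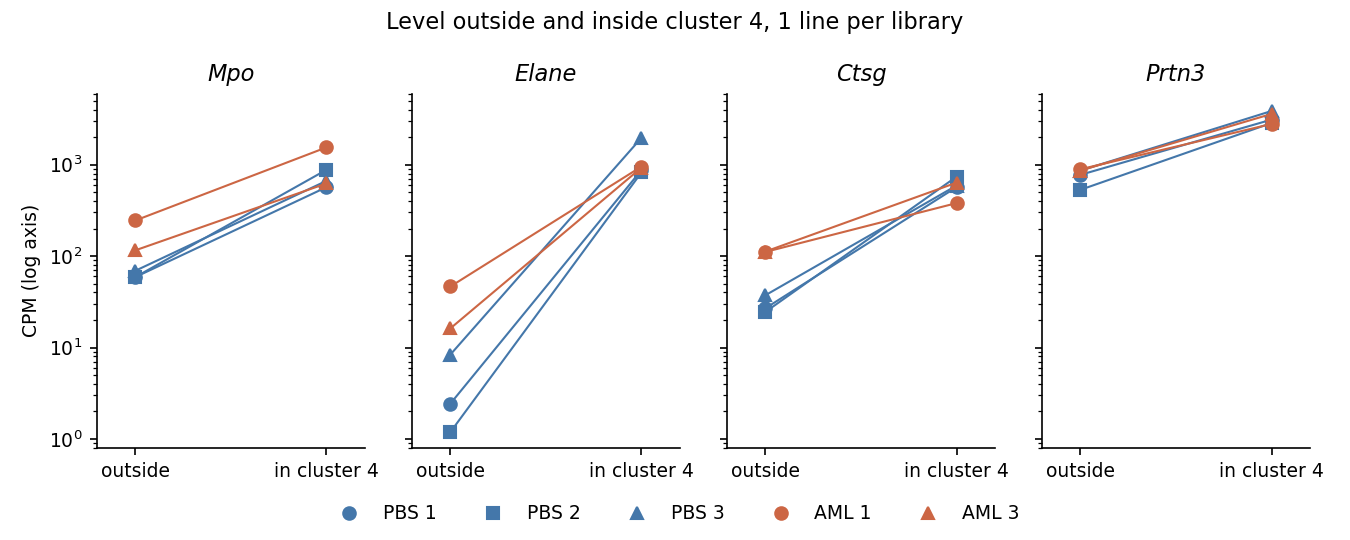
Level of each gene inside and outside cluster 4, in CPM on a log axis, with a line joining both values of each library (PBS blue, AML orange). Elane has the steepest lines, from 1.19 to 46.5 CPM outside to 823 to 1969 CPM inside, and Prtn3 the flattest.

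The share of cells with at least 1 UMI was higher in cluster 4 for all 4 genes. Cells were first thinned to 2000 UMIs each, which left out 205 of the 16822 cells. In cluster 4, 56.7% of cells held a UMI of Mpo (exact 95% interval 53.3% to 60.2%), 33.0% of Elane (29.8% to 36.4%), 55.3% of Ctsg (51.8% to 58.7%) and 85.3% of Prtn3 (82.7% to 87.6%). Without thinning these shares were 75.4%, 49.0%, 75.7% and 93.1%. Outside cluster 4 the thinned shares were 11.0% for Mpo, 1.04% for Elane, 5.95% for Ctsg and 66.8% for Prtn3, and the unthinned ones 22.0%, 2.39%, 11.5% and 83.3%. The intervals cover counting error only. Median depth before thinning was 8458 UMIs inside and 4476.5 outside.

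Clusters 6, 7 and 8, the smallest of the table, served as a measure of background. Their thinned shares were 2.86%, 0.98% and 5.61% for Mpo, 0.57%, 0.98% and 0.93% for Elane, 1.14%, 1.96% and 2.80% for Ctsg and 13.1%, 13.7% and 29.9% for Prtn3, at median depths of 8667, 6380 and 3516 UMIs. The HSC class outside cluster 4 lay within that range for Mpo (3.06%) and Elane (0.618%), and Ctsg was at 1.11% there, below all 3 clusters. With the cells of a group pooled, Mpo was found in 2.91% of these HSC cells and 0.424% of the cells of clusters 6, 7 and 8 in PBS, and in 3.73% and 7.43% in AML, where 16 cells of AML 1 carried the latter value and AML 3 alone stood at 3.79%. Prtn3 was found in 70.2% of the same HSC cells, which is above all 3 background clusters although HSC cells were shallower, with a median of 3397.5 UMIs. Outside cluster 4, Elane reached 3.37% (2.58% to 4.31%) in MPP-3 cells, 0.912% in MPP-2 cells and 0.679% in MPP-4 cells. The MPP-3 share was above those of the 3 clusters but within the exact intervals of cluster 7 (up to 5.34%) and cluster 8 (up to 5.10%). The MPP-2 and MPP-4 shares lay within the range of the 3 clusters.

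Class and cluster 4 did not mark the same cells. Cluster 4 held 564 cells of MPP-3, 217 of MPP-2, 39 of MPP-4 and 6 of HSC, and 1805 MPP-3 cells lay outside it. Among MPP-3 cells, Elane was found in 43.0% inside cluster 4 and 3.37% outside. Mpo was found in 68.4% and 29.3%, Ctsg in 65.4% and 20.8%, and Prtn3 in 88.4% and 71.7% of the same cells. MPP-2 cells inside cluster 4 held Elane in 13.8%, Mpo in 34.6%, Ctsg in 38.7% and Prtn3 in 81.6%, so a class of 1 name differed by cluster in every gene.

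In single cells of cluster 4 the 4 genes were found together. Of 823 thinned cells, 182 (22.1%) held a UMI of all 4 genes, where the product of the 4 shares gives 8.84%, and 95 held none. Per library, cells with all 4 genes made up 15.9%, 4.35% and 20.8% in PBS 1, 2 and 3 and 22.1% and 26.9% in AML 1 and 3. Outside cluster 4 there were 33 such cells of 15794 (0.209%), of which 0, 0 and 4 came from PBS 1, 2 and 3 and 10 and 19 from AML 1 and 3. The product of shares outside was 0.00456%. Cells of a library share its free RNA, and pooling libraries with different shares adds to such ratios, so these values are descriptions.

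**Figure D3:**
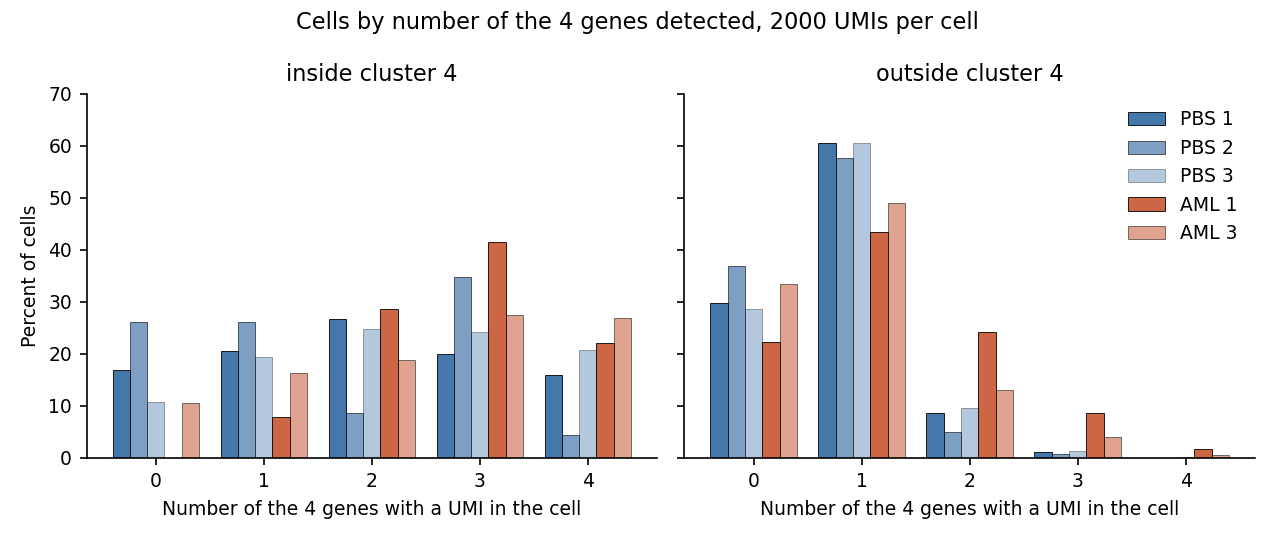
Percent of cells, thinned to 2000 UMIs, that hold a UMI of 0, 1, 2, 3 or 4 of the genes, inside and outside cluster 4, for each library. Inside cluster 4 between 4.35% and 26.9% of a library's cells hold all 4 genes, and outside most cells hold 1 gene or none.

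Elane, the least often found of the genes in cluster 4, was mostly found in cells that held the others. Of the cells with Elane, 98.2% also held Prtn3, 84.6% Mpo and 79.8% Ctsg. In the other direction, Elane was found in 49.3% of the cells with Mpo, 47.7% of those with Ctsg and 38.0% of those with Prtn3, an asymmetry that the shares of each gene alone would also give. Over the 823 cells, Pearson's r of the log-normalized values was 0.52 for Mpo and Prtn3, 0.50 for Elane and Prtn3, 0.48 for Mpo and Elane, 0.44 for Ctsg and Prtn3, 0.40 for Mpo and Ctsg and 0.40 for Elane and Ctsg. In AML 1 the pairs were found together 0.99 to 1.16 times as often as the product of their shares, and in PBS 2, with 23 cells, the ratio was 1.02 for Elane and Ctsg and 1.10 for Ctsg and Prtn3. In AML 1 r ran from 0.07 to 0.28 over 77 cells, of which 88.3% held Mpo and 94.8% Prtn3.

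AML was compared with PBS first over all LSK cells, by UMI counts summed per library and edgeR's quasi-likelihood test. These values are CPM scaled by edgeR's TMM factors. All 4 genes were higher in both AML libraries than in all 3 PBS libraries, a pattern that 14.6% of the 14364 genes tested shared, and 1 gene, Ctsg, passed the test, against 0.160% of genes called in either direction. More cells of a type and more RNA per cell cannot be told apart in such sums.

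Ctsg was at 46.8, 48.8 and 74.2 TMM CPM in PBS 1, 2 and 3 and at 143 and 186 in AML 1 and 3. The groups did not overlap, and Ctsg rose by a log2 fold change of 1.54 ± 0.257 (SE, adjusted p = 0.0250, edgeR). Mpo was at 75.5, 87.4 and 111 TMM CPM in PBS and 399 and 187 in AML. Both AML libraries were higher, AML 1 more than AML 3, and the log2 difference of 1.67 ± 0.308 missed the threshold (adjusted p = 0.0533, edgeR). It was 1.05 without AML 1 (adjusted p = 0.283) and 2.13 without AML 3 (adjusted p = 0.0022). Elane was at 37.3, 28.7 and 129 TMM CPM in PBS and 153 and 149 in AML. PBS 3 lay close to the AML libraries, and the log2 difference was 1.21 ± 0.460 (adjusted p = 0.389, edgeR). Without PBS 3 it was 2.20 (adjusted p = 0.0180). Prtn3 was at 815, 618 and 1113 TMM CPM in PBS and 1117 and 1239 in AML. PBS 3 nearly met AML 1, and the log2 difference was 0.47 ± 0.302 (adjusted p = 0.577, edgeR).

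**Figure D4:**
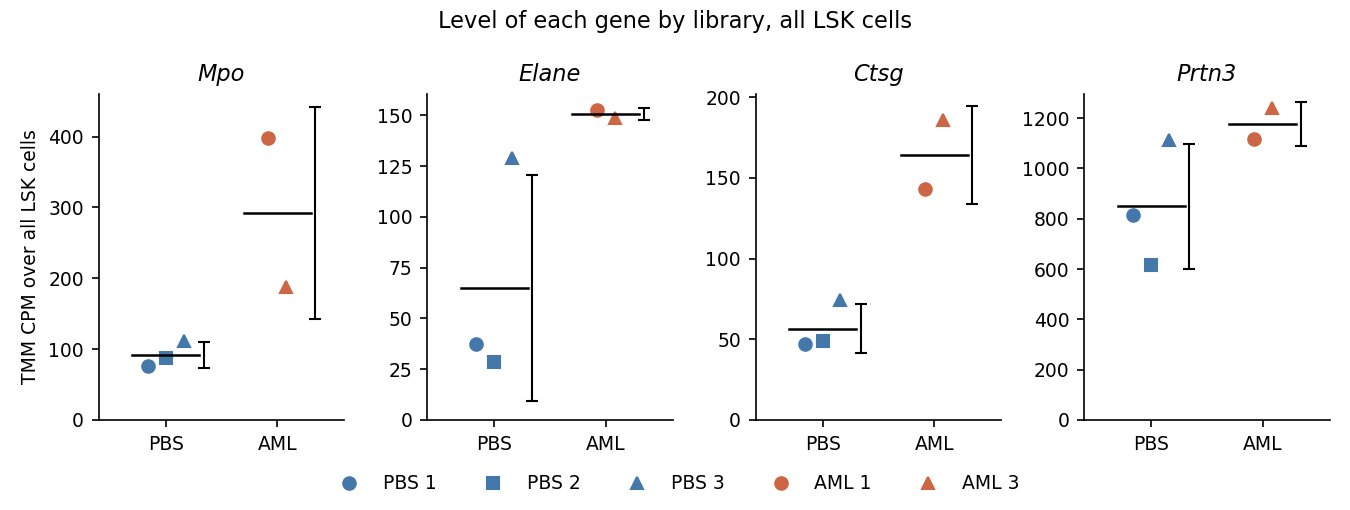
Level of each gene over all LSK cells, in TMM CPM, with 1 symbol per library, a line at each group's mean and a bar of 1 SD beside it (3 PBS and 2 AML libraries). Both AML libraries lie above the 3 PBS libraries in all 4 panels, and PBS 3 is the highest PBS library in each.

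The call for Ctsg depended on single libraries and on the makeup of the sums. Its adjusted p was 0.203 without PBS 1 and 0.143 without PBS 2, with log2 differences of 1.45 and 1.47. With the classes weighted to equal shares in every library its difference was 0.49 (adjusted p = 0.665), and with cluster 4 weighted to an equal share 0.78 (adjusted p = 0.372). Elane changed sign under those weightings, to -0.27 and -0.23, Mpo stood at 0.65 and 1.01, and Prtn3 at 0.00038 and 0.12. With a filter of at least 1000 genes and at most 10% mitochondrial UMIs on all deposited barcodes, AML 2 entered with 106 cells. That library then had the highest TMM CPM of the 6 for all 4 genes, with 452 for Mpo, 437 for Elane, 199 for Ctsg and 1500.1 for Prtn3. Mpo (1.83, adjusted p = 0.00718) and Ctsg (1.63, adjusted p = 0.00395) passed in that fit, and Elane (1.96, adjusted p = 0.0780) and Prtn3 (0.47, adjusted p = 0.430) did not.

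Cluster 4 itself held a larger share of the cells in both AML libraries than in any PBS library. It made up 2.88%, 2.46% and 3.41% of the cells of PBS 1, 2 and 3 and 11.1% and 9.57% of those of AML 1 and 3. The groups did not overlap, and the means differed 3.54-fold, at the smallest p that an exact two-sided permutation test over 10 splits allows (p = 0.1). The MPP-3 class moved with it, at 4.39% to 11.6% of cells in PBS and 32.9% and 22.3% in AML.

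Outside cluster 4, which takes that share out of the sums, Ctsg again passed the test and the others did not. Ctsg was at 25.2, 25.2 and 40.4 TMM CPM in PBS 1, 2 and 3 and 112 and 108 in AML 1 and 3. The groups were well separated, and Ctsg rose by a log2 fold change of 1.86 ± 0.248 (adjusted p = 0.0115, edgeR), where 0.0839% of 14298 genes were called in either direction. Mpo was at 55.2, 60.6 and 74.8 TMM CPM in PBS and 246 and 111 in AML. Both AML libraries were higher and the log2 difference was 1.47 ± 0.297 (adjusted p = 0.109, edgeR), which passed by DESeq2 (adjusted p = 0.00181). It was 0.83 without AML 1 (adjusted p = 0.650) and 1.96 without AML 3 (adjusted p = 0.00162). Elane was at 2.28, 1.22 and 9.08 TMM CPM in PBS and 46.7 and 15.6 in AML. These groups did not overlap either, and the log2 difference was 2.68 ± 0.591 (adjusted p = 0.156, edgeR). Without the PBS 3 cell with 83 UMIs, which was picked for its Elane value, it was 3.26 (adjusted p = 0.0175). That fit kept the top cells of the AML libraries. In AML 1, 1 cell held 18 of the 80 Elane UMIs outside cluster 4 (46.5 CPM with it and 36.1 without, not TMM scaled). Elane also passed without PBS 3 (3.91, adjusted p = 0.0471) and without AML 3 (3.44, adjusted p = 0.0130), and was 1.87 without AML 1 (adjusted p = 0.692). Prtn3 was at 724, 545 and 931 TMM CPM in PBS and 895 and 831 in AML, with overlap and a log2 difference of 0.23 ± 0.291 (adjusted p = 0.796, edgeR). Every library of AML above every library of PBS was found for 3 of the 4 genes and for 13.9% of all genes tested.

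The Ctsg result outside cluster 4 missed the threshold without PBS 1 (adjusted p = 0.0861) and without PBS 2 (adjusted p = 0.0937), with log2 differences of 1.77 in both. Restricted to G1 cells it was 1.98 ± 0.360 (adjusted p = 0.0186) and to S and G2M cells 1.58 ± 0.244 (adjusted p = 0.0124). Restricted to the MPP-3 class, it was 1.21 ± 0.321 and did not pass (adjusted p = 0.709). In that subset Ctsg was at 75.0, 117 and 130.0 TMM CPM in PBS and 212 and 274 in AML. Mpo was at 129, 139 and 173 TMM CPM in PBS and 459 and 257 in AML, and Prtn3 at 843, 459 and 1220 in PBS and 1104 and 1282 in AML. Elane was at 4.29, 0 and 59.0 TMM CPM in PBS and 74.8 and 45.1 in AML, a log2 difference of 1.18 ± 0.765 (adjusted p = 0.901, edgeR). Elane and Prtn3 overlapped between the groups and Ctsg and Mpo did not, but the share of all genes without overlap in this subset was not counted.

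The ratio of Elane to Mpo differed inside and outside cluster 4. In cluster 4 there were 1.54, 0.937 and 2.96 Elane UMIs per Mpo UMI in PBS 1, 2 and 3 and 0.617 and 1.49 in AML 1 and 3. Outside, the ratio was 0.0413, 0.0202 and 0.121 in PBS and 0.190 and 0.140 in AML, below the value of cluster 4 in all 5 libraries. Without the PBS 3 cell with 83 Elane UMIs it was 0.0659 in that library. In the barcodes that are not in the cell table it was 0.132, 0.306 and 0.144 in PBS 1, 2 and 3 and 0.330, 0.208 and 0.156 in AML 1, 2 and 3. The makeup of free RNA was not measured, and its part in the levels outside cluster 4 was not tested.

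Detection in clusters 6, 7 and 8 was also set beside that in the other cells by group. Ctsg was found in 2.12% of their 236 thinned PBS cells and 1.35% of their 148 AML cells, while in the other cells outside cluster 4 it was found in 3.97% and 11.9%. Elane was found in 0.847% and 0.676% of the cells of clusters 6, 7 and 8 in PBS and AML, and in 0.572% and 2.37% of the others. Mpo was found in 0.424% of those cells in PBS and 7.43% in AML, and in 9.30% and 16.7% of the others. In AML 1, Mpo was found in 37.5% of the 16 cells of clusters 6, 7 and 8 (15.2% to 64.6%) and in 31.8% of the others, so in that library detection of Mpo was no higher in the other cells than in those clusters. In AML 3 it was found in 3.79% of the 132 cells of clusters 6, 7 and 8, and in PBS 1, 2 and 3 in 0%, 0% and 0.962% of 112, 20 and 104 cells. Counts of 0 among 112 and 20 cells allow shares of up to 2.68% and 15.0%. Prtn3 was found in 19.9% and 14.9% of the cells of clusters 6, 7 and 8 and in 68.8% and 65.9% of the others.

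Inside cluster 4, none of the 4 genes passed the test and all 4 overlapped between groups, where 0.522% of 8615 genes were called and 20.9% did not overlap. Mpo was at 526, 915 and 738 TMM CPM in PBS 1, 2 and 3 and 1526 and 626 in AML 1 and 3, a log2 difference of 0.55 ± 0.357. Elane was at 810.0, 857 and 2186 TMM CPM in PBS and 942 and 933 in AML, a log2 difference of -0.46 ± 0.371. Ctsg was at 526, 768 and 656 TMM CPM in PBS and 375 and 639 in AML, a log2 difference of -0.33 ± 0.342. The single high values were AML 1 for Mpo and PBS 3 for Elane. Prtn3 was at 2883, 2970.2 and 4285 TMM CPM in PBS and 2752 and 3604 in AML, a log2 difference of -0.09 ± 0.356, and the adjusted p of each gene was 1.00 (edgeR). None had an unadjusted p under 0.05 (the lowest was 0.125, for Mpo), and DESeq2 called 0 of the 4.

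Markers of another lineage varied between the libraries of cluster 4. Summed mast cell and basophil markers (Cpa3, Mcpt8, Ms4a2, Fcer1a, Prss34) ranged from 22.1 to 897 CPM over its 5 libraries. Against 0.522% of all genes called in cluster 4, 4 of these 5 genes fell in AML there by edgeR and 1 by DESeq2. By edgeR the log2 level fell by 1.84 for Cpa3 (adjusted p = 0.0137), 2.13 for Mcpt8 (adjusted p = 0.00645), 3.19 for Ms4a2 (adjusted p = 1.3e-05) and 2.23 for Prss34 (adjusted p = 0.0181). The part of these cells in the levels of the granule genes was not tested.

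The AML difference was smaller in cluster 4 than in the other cells for 3 of the 4 genes. This was tested as a term of 1 model with both sums of each library and 1 term per library, in which 0.337% of 11268 genes were called. The difference of log2 differences, cluster 4 minus the other cells, was -3.13 ± 0.255 for Elane (adjusted p = 3.64e-26), -2.21 ± 0.222 for Ctsg (adjusted p = 6.92e-18) and -0.99 ± 0.211 for Mpo (adjusted p = 0.00229, all by edgeR). DESeq2 called these 3 genes too, with adjusted p of 0.00290 for Elane, 7.42e-11 for Ctsg and 0.00240 for Mpo. For Prtn3 it was -0.41 ± 0.196 (adjusted p = 1.00, unadjusted p = 0.0381). The edgeR p-values of this term draw on a spread shared over genes and do not measure each gene's own spread between 5 libraries. For Elane the level in cluster 4 over that outside ranged from 235 to 690.3 in PBS and was 20.5 and 57.3 in AML. With 1 library left out the term for Elane ran from -4.16 (without AML 3) to -2.36 (without AML 1) and that for Ctsg from -2.82 to -1.77 (the same libraries). Leaving out PBS 3 ended the call for Mpo (adjusted p = 0.120), and leaving out AML 3 gave one for Prtn3 (-0.75, adjusted p = 0.00184). Markers of other cells were called in the same direction in this model, with 2 of 2 tested T and NK cell markers and 2 of 5 mast cell and basophil markers negative, and of the 11 granulocyte and monocyte regulators 1 was positive and 1 negative. The AML cells outside cluster 4 also differed in class and phase, and the part of these differences in this term was not tested beyond the values given for phase. Cluster 4 was drawn from the expression of the same cells, and the part of its border in these values was not tested.

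**Figure D5:**
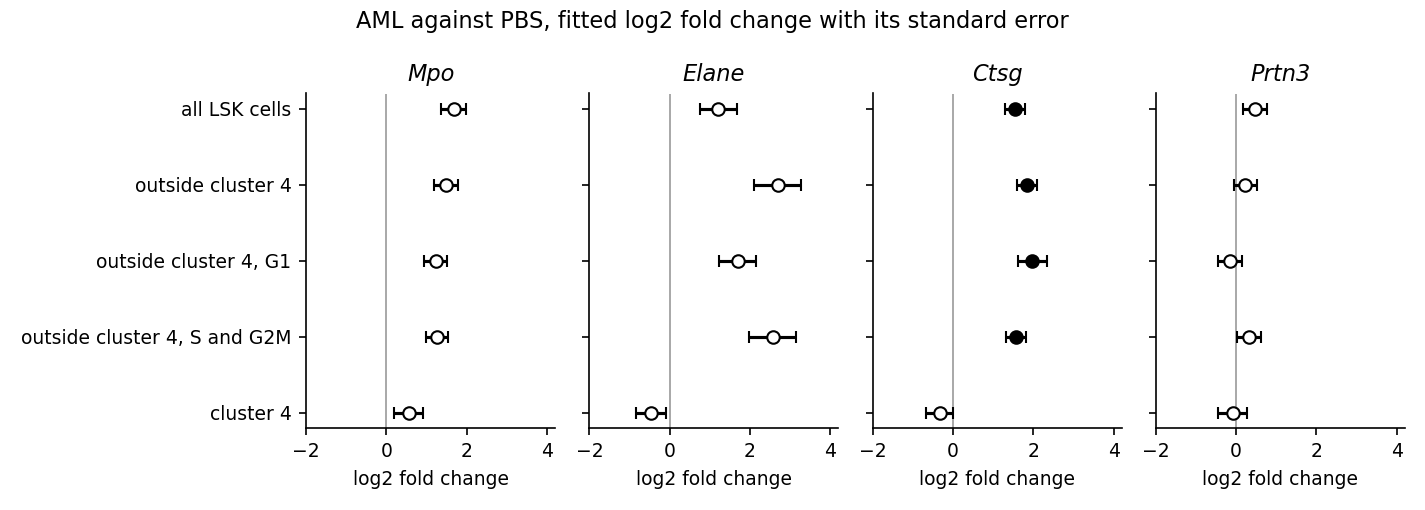
Log2 fold change of AML over PBS for each gene over all LSK cells, outside cluster 4 (all, G1, and S and G2M cells) and in cluster 4, with bars of 1 SE from edgeR and filled points for an adjusted p under 0.05. Only Ctsg has filled points, and over all LSK cells and outside cluster 4 the points of Mpo, Elane and Ctsg lie between 1.21 and 2.68 with all phases included, and inside cluster 4 between -0.46 and 0.55.

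Within the authors' classes, 1 gene in 1 class passed the test. In MPP-2, where 0.0399% of genes were called, Elane was at 4.72, 2.78 and 9.05 TMM CPM in PBS 1, 2 and 3 and 73.2 and 23.4 in AML 1 and 3. The AML libraries lay above all PBS libraries, as they did for 14.1% of genes in MPP-2, and Elane rose by a log2 fold change of 2.88 ± 0.443 (adjusted p = 0.0211, edgeR). The call was lost without PBS 2 (adjusted p = 0.147), PBS 3 (adjusted p = 0.0608) or AML 1 (adjusted p = 0.157), with log2 differences of 2.65, 3.43 and 2.02, and by DESeq2 (3.10, adjusted p = 0.0556). Cells of cluster 4 were part of these sums, with 66, 4 and 53 MPP-2 cells in PBS and 18 and 76 in AML. Without them Elane stood at 2.54, 1.49 and 4.69 CPM (not TMM scaled) in PBS and 40.8 and 11.4 in AML, and 1 cell held 18 of the 35 UMIs of AML 1. Within the MPP-2 class, Ctsg was at 39.9, 57.9 and 63.2 TMM CPM in PBS and 85.9 and 134 in AML, a log2 difference of 1.07 ± 0.274 (adjusted p = 0.232, edgeR). Mpo differed by 0.94 ± 0.301 (adjusted p = 0.460) and Prtn3 by 0.31 ± 0.30 (adjusted p = 0.780) in the same cells. With no filter on low counts Ctsg passed in MPP-2 (1.06, adjusted p = 0.0156).

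In MPP-4 (0.0325% of genes called), Ctsg was at 15.1, 7.73 and 22.1 TMM CPM in PBS 1, 2 and 3 and 45.7 and 35.2 in AML 1 and 3. The AML libraries were above all PBS libraries, as for 13.2% of genes in MPP-4, and the log2 difference of 1.30 ± 0.311 did not pass (adjusted p = 0.166, edgeR). Elane differed by 1.94 ± 0.549 (adjusted p = 0.345), Mpo by 0.46 ± 0.275 (adjusted p = 0.889) and Prtn3 by -0.35 ± 0.277 (adjusted p = 0.928) there. Of the 4 genes, 2 (Elane and Ctsg) had an unadjusted p under 0.05 in MPP-4 and DESeq2 called 0, while with no filter both passed (1.93 for Elane, adjusted p = 0.0252, and 1.30 for Ctsg, adjusted p = 0.00193). In MPP-3 (0.0486% called), the class with the highest levels, the differences were 0.58 ± 0.372 for Mpo (adjusted p = 0.797), -0.63 ± 0.436 for Elane (adjusted p = 0.817), 0.05 ± 0.378 for Ctsg (adjusted p = 0.988) and -0.02 ± 0.382 for Prtn3 (adjusted p = 0.997), with 0 of the 4 at an unadjusted p under 0.05 and 0 called by DESeq2. In HSC (0.178% called), Elane was too low to be tested. Mpo differed by 0.30 ± 0.343, Ctsg by 1.15 ± 0.536 and Prtn3 by -0.35 ± 0.308 in HSC, each with an adjusted p of 0.992, and Ctsg was at 0 in PBS 2 and AML 1. Of the 3 genes tested there, Ctsg alone had an unadjusted p under 0.05 (0.0320) and DESeq2 called 0. The HSC sum of AML 1 in these fits held 23 cells.

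The share of all LSK cells with a UMI separated the groups for 3 genes. After thinning, Mpo was found in 10.2%, 8.14% and 11.0% of the cells of PBS 1, 2 and 3 and 38.2% and 17.9% of those of AML 1 and 3. Elane was found in 1.19%, 0.964% and 1.71% of the cells in PBS and 9.67% and 5.20% in AML. Ctsg was found in 5.04%, 2.46% and 6.44% of the cells in PBS and 20.3% and 15.5% in AML. For each of these the AML libraries were above all PBS libraries, as for 16.4% of the genes tested in the same measure, and p was 0.1 by the exact permutation test, the smallest that 3 against 2 libraries allow. Prtn3 was found in 68.3%, 60.3% and 69.7% of the cells in PBS and 72.9% and 65.4% in AML, with overlap (exact permutation p = 0.6). Without thinning the shares of Prtn3 were 83.3%, 89.4% and 84.2% in PBS and 78.9% and 83.6% in AML, so the direction of its means turned with depth.

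Inside cluster 4, the share of cells with a UMI was higher in both AML libraries than in all PBS libraries for Mpo, Elane and Prtn3 but not for Ctsg. A UMI of Elane was found in 23.6%, 21.7% and 30.2% of the cells of PBS 1, 2 and 3 and 48.1% and 36.7% of those of AML 1 and 3, without overlap (exact permutation p = 0.1), a pattern shared by 10.8% of genes tested in cluster 4. The cells that held it carried on average 6.20, 5.40 and 11.0 Elane UMIs in PBS and 4.84 and 5.16 in AML, out of 2000. The means were lower in both AML libraries, but the medians were not, at 2, 2 and 3 UMIs per positive cell in PBS and 3 and 3 in AML. Mpo was found in 48.7%, 43.5% and 51.0% of these cells in PBS and 88.3% and 57.5% in AML, and carried 2.20, 3.50 and 2.34 UMIs per positive cell in PBS and 3.43 and 2.25 in AML, which overlap. Prtn3 was found in 80.0%, 60.9% and 85.9% of them in PBS and 94.8% and 87.3% in AML (exact permutation p = 0.2). Ctsg was found in 45.1%, 39.1% and 57.7% in PBS and 46.8% and 62.3% in AML, with overlap (exact permutation p = 0.4).

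Cell cycle phase, which the cell table calls from cell cycle genes, went with the levels of the 4 genes. Outside cluster 4, S and G2M cells were compared with G1 cells of the same library. All 4 genes rose in the TMM-scaled sums, where 61.4% of 12374 genes were called and 29.9% were called higher. Ctsg was at 9.64, 3.13, 17.3, 29.4 and 44.9 TMM CPM in the G1 cells of PBS 1, 2 and 3 and AML 1 and 3, and at 38.5, 45.1, 60.2, 132 and 156 in their S and G2M cells. It was higher in 5 of 5 libraries, as were 25.0% of all genes tested, with a log2 fold change of 1.97 ± 0.111 (adjusted p = 7.81e-13, edgeR). Mpo was at 33.3, 34.9, 41.9, 154 and 58.1 TMM CPM in G1 and 74.2, 84.8, 103, 274 and 152 in S and G2M cells, also higher in 5 of 5 libraries (1.26 ± 0.0562, adjusted p = 1.37e-14, edgeR). Elane was at 1.99, 1.12, 4.49, 11.0 and 8.30 TMM CPM in G1 and 2.54, 1.36, 13.0, 55.5 and 21.2 in S and G2M cells. The levels differed little in PBS 1 and 2 and more in the other libraries (1.26 ± 0.156, adjusted p = 4.03e-07, edgeR). The difference in PBS 3 came from the cluster 7 cell with 83 UMIs, without which that library stood at 4.34 CPM (not TMM scaled) in G1 and 4.66 CPM in S and G2M cells, and the log2 fold change of Elane was then 0.96 (adjusted p = 8.5e-05). Prtn3 was at 694, 542, 874, 616 and 673 TMM CPM in G1 and 754, 566, 995, 983 and 964 in S and G2M cells (0.28 ± 0.0617, adjusted p = 0.000570, edgeR). In thinned cells of all libraries, Prtn3 was found in 68.0% of G1, 65.3% of S and 65.5% of G2M cells, which is no rise. Shares of Mpo (7.28%, 15.7% and 15.3%), Elane (0.808%, 1.19% and 1.45%) and Ctsg (2.68%, 9.70% and 9.92%) were lowest in G1. Scaled by library size alone, the Prtn3 difference was 0.12 and did not pass (adjusted p = 0.0602). Its mean CPM in G1, S and G2M cells was 723, 708 and 735 in PBS and 701, 956 and 917 in AML. Marker lists moved between the same sums, with 1 of 7 LSK markers higher and 4 lower, 2 of 2 tested mast cell and basophil markers higher, 2 of 6 tested erythroid markers higher and 3 lower, 4 of 4 tested B and plasma cell markers lower, 1 of 3 tested T and NK cell markers higher and 2 lower, and 1 of 6 tested monocyte and macrophage markers higher and 1 lower, and their part in the members' values was not tested.

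None of the genes that act on the granule proteins passed the test over all LSK cells. Of 9 genes for processing, packing and inhibition, 9 were tested and 0 passed in either direction by edgeR (4 at an unadjusted p under 0.05, 0 by DESeq2), with a median log2 difference of -0.13 against -0.03 over all genes. Srgn, which holds the proteases in the granule, was at a mean of 1246 TMM CPM in PBS and 771 in AML (-0.69, adjusted p = 0.435). Calr and Canx, chaperones of myeloperoxidase in the endoplasmic reticulum, differed by 0.90 (adjusted p = 0.327) and 0.55 (adjusted p = 0.474). Serpinb1a, an inhibitor of elastase, cathepsin G and proteinase 3, differed by -0.38 (adjusted p = 0.622), and Ctsc by -0.19 (adjusted p = 0.801). Of 9 other contents of primary granules and lysosomes, 7 were tested and 0 passed by edgeR (2 at an unadjusted p under 0.05, 1 by DESeq2), with a median of -0.22 (Cd63 -1.07, Lyz2 -0.91, Ctsd -0.36 and Hexa -0.10). Of 11 transcription factors and markers of granulocyte and monocyte fate, 1 rose and 0 fell by edgeR, against 0.160% of all genes called (3 at an unadjusted p under 0.05, 2 by DESeq2), with a median of 0.12, and the 1 was Irf8 (2.17 ± 0.333, adjusted p = 0.0183, edgeR), a factor of the monocyte branch. Inside cluster 4, where 0.522% of all genes were called, 1 of 7 tested other contents of primary granules and lysosomes fell by edgeR. DESeq2 called 1 of them, and their median log2 difference was -0.48.

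Markers of other cells were counted in the same way over all LSK cells. Of the late granule genes of maturing neutrophils 5 of 11 were tested and 0 passed by edgeR (median log2 difference -1.09), with 3 at an unadjusted p under 0.05 and 0 called by DESeq2. Of monocyte and macrophage markers 9 of 10 were tested and 0 passed (0.28), with 3 at an unadjusted p under 0.05 and 2 called by DESeq2. Of T and NK cell markers 4 of 7 were tested (1.04), of erythroid markers 7 of 7 (-0.97), of mast cell and basophil markers 5 of 5 (-0.40) and of LSK markers 7 of 7 (0.08). In these 4 lists 0 genes passed by edgeR and 0 by DESeq2, and 2, 1, 1 and 1 had an unadjusted p under 0.05. Of B and plasma cell markers 6 of 7 were tested and 1 fell (median -0.33), the immunoglobulin gene Igha (-7.71, adjusted p = 0.0183, edgeR). The part of these cells in the members' values was not tested.

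The genes whose pattern was most like each member were sought over 38 sums of a library and a cluster, among 9603 genes with a mean of at least 5 CPM. These correlations describe sums that share libraries and cells, and carry no test. For Mpo the nearest genes outside the set were Anxa3 (Pearson r = 0.84), Pkib (0.82) and Cebpa (0.81), the last a transcription factor of granulocyte and monocyte progenitors. For Elane they were Hp (0.89), Ms4a3 (0.79) and F13a1 (0.79), and for Ctsg Anxa3 (0.85), Cst7 (0.83) and Tyrobp (0.80). For Prtn3 they were Gria3 (0.85), Ccl9 (0.83) and Cfp (0.83). Among the 4 genes themselves r was 0.89 for Mpo and Prtn3, 0.84 for Mpo and Ctsg and 0.83 for Ctsg and Prtn3, while Elane stood at 0.65 to 0.70 with each of the others.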

How the data were processed

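Counts of UMIs per gene and barcode for 6 libraries, and a table of 16822 cells with library, class, cluster and phase, were used as the authors deposited them. Per the submitters' processing notes these came from Cell Ranger 7.0.1 on GRCm38 (mm10), R 4.2.2 and Seurat 4.3.0. How cells were filtered and doublets handled are details not given in the sources used here (the expanded methods of the paper were not used here), no doublet caller was run, and 19 other columns of the cell table were not used. AML 2, with 0 cells in the table, entered only the fit with an own filter (at least 1000 genes and at most 10% mitochondrial UMIs), so 3 PBS and 2 AML libraries were compared where 3 and 3 had been planned.

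Counts were summed per library over the cells named, where at least 20 cells were present, and tested with edgeR 4.0.16 in R 4.3.3 (quasi-likelihood test, TMM, filterByExpr, Benjamini-Hochberg adjustment over all genes tested, threshold 0.05). SE is the log2 fold change divided by the square root of F. DESeq2 1.42.0 and limma-voom (limma 3.58.1) were alternatives. For shares of cells with a UMI, each cell was thinned to 2000 UMIs (1000 as an alternative, seed 7) with Python 3.11.15, numpy 2.4.6, pandas 2.3.3 and scipy 1.17.1. Shares were compared by an exact two-sided permutation test over library means (10 splits, smallest p 0.1). Intervals are exact Clopper-Pearson 95% intervals. The scripts were tested on simulated data. Nothing in the labels says that libraries came from separate animals, so p-values measure the spread between these libraries only. The edgeR test takes the spread of a gene in part from all genes tested.

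The 4 genes and the gene lists were chosen with earlier results of these data known. The text names the 4 genes throughout, from each list the genes that passed over all LSK cells or otherwise up to 4 with the highest mean CPM, and for each member the 3 other genes with the highest r of log2(CPM + 1). Ctsc, named as background for the proteases, the genes that fell in cluster 4, and the background values of clusters 6, 7 and 8, the ratio of Elane to Mpo, and the UMIs per positive cell were added after values were seen. Fits restricted to G1 cells, to S and G2M cells and to MPP-3 cells outside cluster 4, and fits without the PBS 3 cell that held the most Elane UMIs outside cluster 4, were chosen after seeing the data.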

Additional observations from a re-analysis of the deposited data

Results flagged for a closer look

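The AML difference was not the same in cluster 4 and in the other cells for 3 of the 4 genes, by the test of the difference itself in edgeR. On the log2 scale, cluster 4 minus the other cells, it was -0.99 for Mpo, -3.13 for Elane and -2.21 for Ctsg. Inside cluster 4 none of these genes passed the test between AML and PBS, and outside it Ctsg alone did.

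Barcodes that the authors did not keep in the cell table held more RNA of Mpo and Ctsg in all 3 AML libraries than in any PBS library, and more of Elane in 2 of the 3. Every AML library lay above every PBS library in these barcodes for 23.4% of the 14364 genes tested over all LSK cells. Mpo was at 160.1, 379 and 81.8 CPM in these barcodes of AML 1, 2 and 3, against 63.2 to 75.6 CPM in PBS. Ctsg was at 52.3, 92.7 and 66.5 CPM in them, against 22.9 to 34.8 CPM in PBS. Elane was at 52.9 and 78.8 CPM in AML 1 and 2, against 8.57 to 19.3 CPM in PBS, and at 12.7 CPM in AML 3, within the PBS range. These barcodes had a median of 944 UMIs in AML 1 and 320 in AML 2, against 3194 to 8396.5 in PBS and 3748.5 in AML 3, and for AML 2 they are all of its 17055 barcodes. They hold any cell type the authors left out, and how far their RNA enters the cells of the table was not tested.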

How the results depend on the processing

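Of 363 alternative values for single genes in the comparisons, 310 kept their direction and side of the threshold, 13 lost the call, 23 gained one and 17 changed sign; the causes were not tested. Over all LSK cells, the 23 called genes became 79 (DESeq2), 392 (no filter), 13 (cells thinned), 10 (equal classes), 8 (equal cluster 4 share) and 75 (own filter). Mpo passed at 1.69 (DESeq2), 1.70 (library size only), 1.63 (no filter), 1.69 (limma-voom), 1.66 (without clusters 6, 7 and 8, adjusted p 0.0495) and 1.83 (own filter), and Elane at 1.18 (no filter). Ctsg lost its call at 0.49 and 0.78 and Elane turned to -0.27 and -0.23 under equal classes and equal cluster 4 share. Outside cluster 4, the 12 called genes became 44 (DESeq2), 19 (library size only), 277 (no filter), 24 (S and G2M cells) and 2 (MPP-3 cells). There Mpo passed at 1.497 (DESeq2) and 1.44 (no filter), Elane at 2.66 (no filter) and 3.26 (1 cell of PBS 3 left out), Ctsg failed at 1.21 (MPP-3 cells), and Prtn3 turned to -0.15 (G1 cells). Called genes by class under DESeq2, library size only and no filter were 0, 29 and 29 in HSC (19 as reported), 15, 26 and 156 in MPP-2 (5), 8, 84 and 166 in MPP-3 (5) and 1, 9 and 75 in MPP-4 (4). They were 7 in cluster 4 under DESeq2 (45) and 13 for the difference between cluster 4 and the other cells (38). Prtn3 in MPP-3 turned to 0.19 and, between phases, failed at 0.12, with library size only. For shares of cells with a UMI, the AML minus PBS difference in percentage points was 2.82 for Elane without cluster 4 (6.15 as reported), 7.88 for Ctsg thinned to 1000 UMIs (13.3) and -4.33 for Prtn3 without thinning (3.02).

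With 1 library left out, called genes ranged from 2 to 419 over all LSK cells, 0 to 17 in HSC, 0 to 84 in MPP-2, 2 to 69 in MPP-3, 0 to 34 in MPP-4, 18 to 101 in cluster 4, 2 to 394 outside it and 17 to 39 for the difference. Over all LSK cells the log2 difference ranged from 1.05 to 2.13 for Mpo, 0.88 to 2.20 for Elane and 1.34 to 1.80 for Ctsg, and outside cluster 4 from 0.83 to 1.96, 1.87 to 3.91 and 1.77 to 2.15. In cluster 4 it ranged from -0.19 to 1.05 for Mpo, -0.69 to 0.18 for Elane and -0.33 to 0.13 for Prtn3, with Prtn3 at 0.11 without AML 1. In MPP-3 it ranged from -0.37 to 0.46 for Ctsg (-0.26 without PBS 1) and -0.37 to 0.27 for Prtn3 (0.03 without PBS 2 and 0.16 without PBS 3), and in MPP-4 from -0.0019 to 1.10 for Mpo. For Ctsg in HSC it ranged from -6.54 to 1.47, the lowest without AML 3, where the lone AML library held 0 UMIs and the fitted value is no bound. The difference between cluster 4 and the other cells ranged from -4.16 to -2.36 for Elane, -2.82 to -1.77 for Ctsg, -1.07 to -0.77 for Mpo and -0.75 to -0.018 for Prtn3, and the share for Prtn3 from -0.72 to 6.76 points. A lone AML library was assumed to vary like the PBS libraries.

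Whether the shared replicate numbers pair the libraries could not be decided. Deviations from the group means correlated at -0.057 for PBS 1 and AML 1 and at -0.055 for PBS 3 and AML 3. With 2 AML libraries, the deviations of AML 1 and AML 3 mirror each other, so these values are not separate checks. With a replicate block, called genes were 91 over all LSK cells, 9 in HSC, 30 in MPP-2, 47 in MPP-3, 34 in MPP-4, 23 in cluster 4 and 58 outside it. Under the block Mpo passed over all LSK cells (1.57) and outside cluster 4 (1.36), Elane passed outside cluster 4 (2.44), and Mpo in HSC (-0.071) and Prtn3 in MPP-3 (0.045) changed sign. Depth limits AML 1 most, and 23 cells of PBS 2 stand for cluster 4 in that library.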
